A study of Mus musculus with 18 samples.

Results

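The transcripts of 10 regulatory T cell and checkpoint genes were followed through the spleens of diabetic and control mice: Foxp3, Il2ra, Ctla4, Icos, Pdcd1, Lag3, Tigit, Havcr2, Tnfrsf4 and Tnfrsf18. They were taken by gene symbol, and all 10 were among the 19326 lines of the deposited RPKM table. The table covers 18 spleen libraries of ICR mice aged 10 weeks, 3 libraries in each of 6 groups. RPKM counts the reads of a gene per kilobase of its length and corrects for the number of reads in a library but not for differences in composition, and the summed RPKM of a library ran from 673221 to 884539.

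Con animals were controls, which per the methods received a regular diet and saline. A10 animals received alginate oligosaccharide (AOS), short sugar chains cut from the alginate of brown algae, at 10 mg/kg. STZ animals received streptozotocin, a toxin of the insulin-producing beta cells that is used to model type 1 diabetes. STZ-A10 animals received STZ and AOS at 10 mg/kg. The other two groups were STZ animals inoculated by mouth with gut microbiota (fecal microbiota transplantation, FMT), which came from donors dosed with AOS at 10 mg/kg in A10-FMT and from control donors in Con-FMT. All animals were male according to the methods. The transplants were pooled small-intestine contents, so each transplant group received a single pool. STZ was injected once at the start, at 5 weeks of age, and the transplants followed over 2 weeks. The methods describe the Con, STZ, A10-FMT and Con-FMT groups, while A10 and STZ-A10 are known here from the labels alone. Neither source says which animal each library came from, so the p-values measure the spread between these libraries.

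Regulatory T cells restrain other lymphocytes and depend on the transcription factor Foxp3. They carry CD25 (Il2ra), the alpha chain that gives the interleukin-2 receptor its high affinity, and CTLA-4 (Ctla4), which takes the ligands CD80 and CD86 away from the costimulatory receptor CD28. They also carry OX40 (Tnfrsf4) and GITR (Tnfrsf18), costimulatory receptors of the TNF receptor family. ICOS (Icos) is a costimulatory receptor of activated, follicular helper and regulatory T cells. PD-1 (Pdcd1), LAG-3 (Lag3), TIGIT (Tigit) and TIM-3 (Havcr2) are inhibitory receptors that rise on activated and chronically stimulated T cells. LAG-3 and TIGIT are also found on NK cells, and TIM-3 on dendritic cells and macrophages. Cd3e encodes the CD3 epsilon chain of the T cell receptor complex and served as a measure of T cell RNA. In whole spleen, fewer cells of a type and less RNA per cell cannot be told apart.

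The libraries differed in ways that touch these transcripts. The third A10-FMT library stood apart: Cd3e was 4.96 RPKM there and 15.75 to 41.86 RPKM in the other 17, globin transcripts made up 42.7% of its summed RPKM against a median of 28.2% over all libraries, and 11532 genes reached 1 RPKM there, the fewest of any library. Transcripts of other tissues also varied. The summed RPKM of 10 hepatocyte genes ran from 4.75 to 370.6, that of 12 exocrine pancreas genes from 24.7 to 23661 and that of 6 germ cell genes from 0.29 to 272.9, with all 3 Con libraries (17.2 to 272.9) above the rest for the germ cell genes. Cd3e was at or above 4.96 RPKM in every library and a set of 10 B cell genes summed to between 625.3 and 2904 RPKM, so transcripts of T and B cells were present throughout.

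All 10 transcripts were detected in every library. Tnfrsf18 was the most abundant member in 18 of 18 libraries, with a range of 5.38 to 21.54 RPKM and a median of 19.5. Tnfrsf4 (2.97 to 12.12), Icos (2.89 to 10.18) and Havcr2 (3.11 to 8.52) came next, with medians of 7.87, 6.81 and 6.59 RPKM. The medians of Ctla4, Lag3, Foxp3 and Tigit were 5.77, 3.73, 3.57 and 3.26 RPKM. Pdcd1 was the least abundant member in 10 libraries and Il2ra in 6, with medians of 2.23 and 2.50 RPKM. Of 180 member values, 1 was under 1 RPKM (Il2ra, 0.79 in the third A10-FMT library), and all 10 members passed the filter for testing, an RPKM of at least 1 in at least 3 libraries.

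These levels rest on few reads. The size of the smallest steps in low genes put an RPKM of 1 at about 11.9 to 13.4 reads per kilobase. With the longest annotated transcript as the length, Tigit then had about 15 to 69 reads per library, Pdcd1 about 27 to 89, Foxp3 about 62 to 217 and Tnfrsf18 about 85 to 324. Whether the authors' counting used strand is not stated, and in the GENCODE annotation Foxp3 overlaps Flicr, Gm36995, Ppp1r3f and Ccdc22, Tnfrsf18 overlaps the antisense gene Gm16008 and Cd3e overlaps the antisense gene Gm48719. Reads of these partners could not be separated here.

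**Figure D1:**
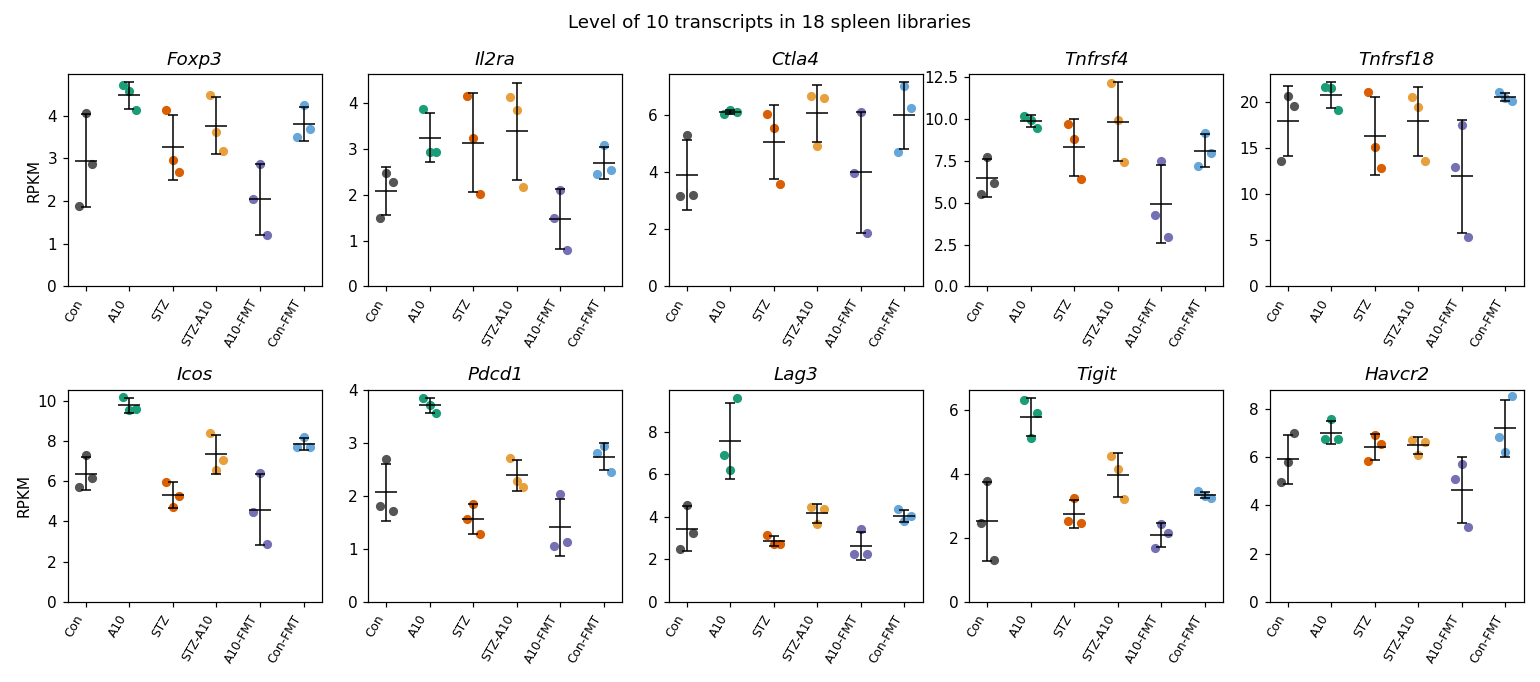
RPKM of the 10 transcripts in each of the 18 libraries, by group (points, 3 libraries a group in replicate order from left to right; bar and whiskers, mean and SD). The A10 libraries sit above every other library for Icos, Pdcd1, Lag3 and Tigit, and the third A10-FMT library is the lowest of all for 8 of the 10 transcripts.

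The group means followed a similar order for most members. A10 had the highest mean for 8 of the 10, with Il2ra highest in STZ-A10 (3.38 ± 1.06 RPKM, SD, n = 3) and Havcr2 in Con-FMT (7.19 ± 1.19). A10-FMT had the lowest mean for 9 of the 10, and Con for Ctla4 (3.88 ± 1.22 against 3.98 ± 2.11 RPKM in A10-FMT). Neighbouring groups in these orders overlapped in nearly all cases. The exceptions were A10 against the group below it for Icos, Pdcd1, Lag3 and Tigit, and A10 against STZ-A10 for Havcr2.

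Lag3 and Pdcd1 varied among the 6 groups beyond the spread between libraries. In the moderated F test of limma over all groups, Lag3 had F = 12.39 (Benjamini-Hochberg adjusted p = 0.0345) and Pdcd1 had F = 10.85 (adjusted p = 0.0417), so that 2 of the 10 members passed where 0.449% of the 12905 genes tested did. Tigit (adjusted p = 0.0629) and Icos (adjusted p = 0.0654) fell just outside, and the other 6 had adjusted p-values from 0.131 to 0.284. Neither call was stable: leaving out any 1 of 12 libraries, the 3 A10 libraries among them, ended both, while leaving out the second A10-FMT library raised the count to 5. The number of all genes that passed in these fits is not reported here, so the count of 5 cannot be set against it.

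The 4 inhibitory or costimulatory receptors with the clearest group pattern were highest after AOS alone. The promoters of Pdcd1, Tigit and Cd3e, genes whose A10 libraries all lay above the other 15, are given here from RefSeq (GRCm38.p6) as the 250 bases before the annotated start. RefSeq entries were found for 8 of the 10 members, and Icos and Lag3 had none. Capitals mark GGAAA or its reverse TTTCC, the core bound by NFAT factors downstream of the T cell receptor, and TGTGGT or its reverse ACCACA, a RUNX motif, both searched on both strands. The forkhead motif TGTTTAC and the AP-1 motif TGANTCA were also searched on both strands, and neither was in these 3 windows.
Pdcd1, chr1:94052554-94052803, minus strand: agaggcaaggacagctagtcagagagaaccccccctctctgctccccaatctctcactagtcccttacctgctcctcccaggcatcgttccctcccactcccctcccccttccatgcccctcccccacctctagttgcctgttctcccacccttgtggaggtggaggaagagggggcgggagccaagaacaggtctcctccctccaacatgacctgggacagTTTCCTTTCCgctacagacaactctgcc
Tigit, chr16:43664185-43664434, minus strand: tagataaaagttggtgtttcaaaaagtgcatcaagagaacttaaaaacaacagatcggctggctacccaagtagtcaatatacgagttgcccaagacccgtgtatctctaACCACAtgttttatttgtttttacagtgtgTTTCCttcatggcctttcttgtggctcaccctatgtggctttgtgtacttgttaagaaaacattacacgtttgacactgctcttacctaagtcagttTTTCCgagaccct
Cd3e, chr9:45009612-45009861, minus strand: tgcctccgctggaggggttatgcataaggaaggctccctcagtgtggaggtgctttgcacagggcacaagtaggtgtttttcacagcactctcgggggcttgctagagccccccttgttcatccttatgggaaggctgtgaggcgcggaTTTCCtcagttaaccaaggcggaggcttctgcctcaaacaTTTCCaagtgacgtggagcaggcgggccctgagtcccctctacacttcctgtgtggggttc
Each window held the NFAT core at 2 places, adjoining each other in Pdcd1, and Tigit also held the RUNX motif at 1 place. The window of Tnfrsf18, whose A10 and Con libraries overlapped, held the NFAT core at 2 places as well. These are common strings: 55.6% of the 32851 promoter windows of the same length held the NFAT core and 21.4% held it at 2 or more places, while 14% held the RUNX motif, 6.75% the AP-1 motif and 3.17% the forkhead motif. A match describes the letters and is not a bound site.

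AOS alone went with higher levels of the inhibitory receptors Lag3, Tigit and Pdcd1 and of the costimulatory receptor Icos, but none of the 10 members passed the adjusted threshold against Con. Tigit was 6.30, 5.12 and 5.92 RPKM in the A10 libraries and 2.48, 3.79 and 1.32 in the Con libraries, a difference of +1.00 on the log2(RPKM + 1) scale (SE 0.20, adjusted p = 0.158). Lag3 was 6.92, 6.22 and 9.59 RPKM in A10 and 2.47, 4.57 and 3.26 in Con, a difference of +0.96 (SE 0.18, adjusted p = 0.125). For both receptors the lowest A10 library lay above the highest Con library.

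Pdcd1 was 3.85, 3.71 and 3.56 RPKM in A10 and 1.80, 2.69 and 1.72 in Con (+0.63, SE 0.16, adjusted p = 0.350). Icos was 10.18, 9.54 and 9.58 RPKM in A10 and 5.69, 7.28 and 6.17 in Con (+0.55, SE 0.17, adjusted p = 0.657). The groups did not overlap for either gene. The A10 libraries were also above all 15 libraries of the other 5 groups for these 4 receptors, whose highest values elsewhere were 4.56 RPKM for Tigit, 4.57 for Lag3, 2.94 for Pdcd1 and 8.39 for Icos. That made 4 of the 10 members, where 1.65% of all genes tested had A10 above every other library, and Cd3e was among those genes (35.53 to 41.86 RPKM in A10, at most 34.04 elsewhere).

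The regulatory T cell genes were also higher. Foxp3 was 4.73, 4.59 and 4.13 RPKM in A10 and 1.89, 4.07 and 2.88 in Con (+0.51, SE 0.21, adjusted p = 0.844), with the second Con library just under the lowest A10 library. Tnfrsf4 differed by +0.55 (SE 0.23), Ctla4 by +0.57 (SE 0.27) and Il2ra by +0.47 (SE 0.24), with A10 above Con in every library, while Tnfrsf18 (+0.22, SE 0.29) and Havcr2 (+0.22, SE 0.16) overlapped.

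Counted together, 0 of the 10 members passed the adjusted threshold in A10 against Con (0.00775% of all genes did), 6 were higher at an unadjusted p under 0.05 (3.56% of all genes), 0 were lower (1.68%) and 8 had libraries apart and higher (11.7% of all genes). Their median difference was +0.55, against +0.05 over all genes tested. Cd3e differed by nearly as much, +0.56 (SE 0.40, adjusted p = 0.989), and all 20 genes of a T lineage list were higher in A10, with a median of +0.32 and 1 at an unadjusted p under 0.05. The part of T cell content in these differences was not tested beyond the ratio to Cd3e given below. Of other tissues, all 4 germ cell genes tested (median -3.19) and 3 of 10 hepatocyte genes (median -1.29) were lower in A10 at an unadjusted p under 0.05, and their part was not tested. Without the second Con library, which had the highest Con values of all members but Havcr2, Lag3 (+1.14, adjusted p = 0.0207) and Tigit (+1.25, adjusted p = 0.0186) passed the threshold. The share of all genes that passed in that fit is not reported here.

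**Figure D2:**
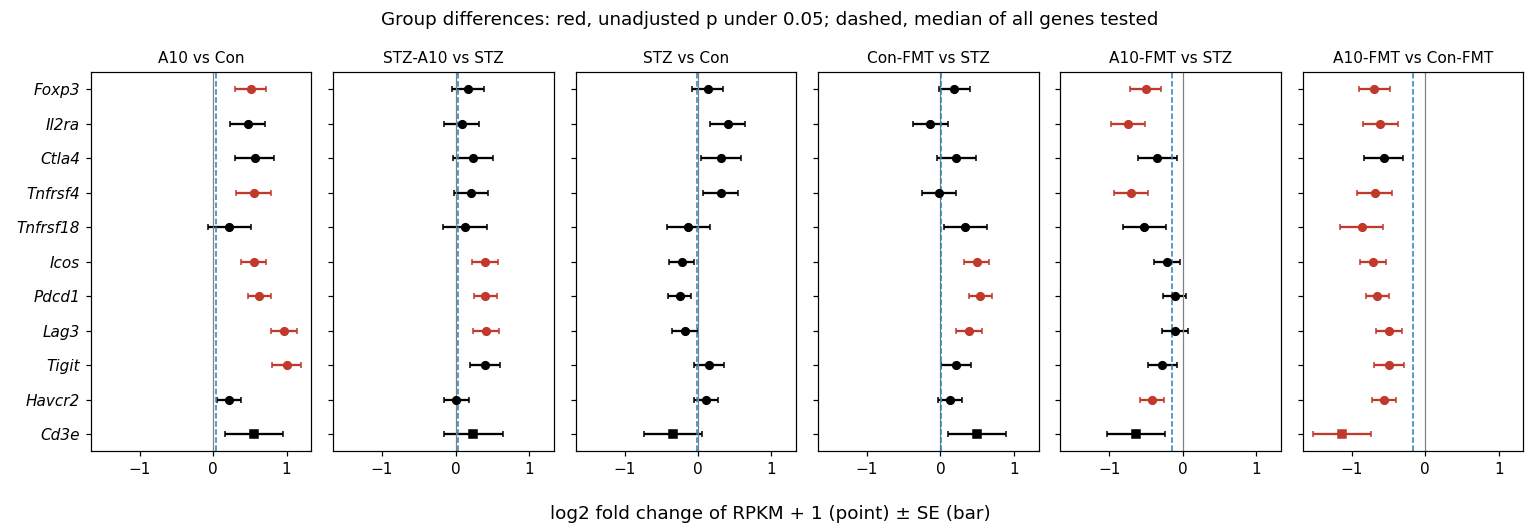
Difference between groups on the log2(RPKM + 1) scale for the 10 transcripts (circles) and Cd3e (squares), with the standard error from limma (bars). Red points have an unadjusted p under 0.05, none passed after adjustment over all genes, and the dashed line is the median of all 12905 genes tested. All 10 transcripts lie above 0 in A10 against Con and below 0 in A10-FMT against Con-FMT, as they did under each scaling tried.

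In STZ animals the members lay on both sides of the controls. Icos was 5.96, 4.71 and 5.27 RPKM in STZ, a difference from Con of -0.22 (SE 0.17), Pdcd1 was 1.57, 1.85 and 1.28 (-0.25, SE 0.16) and Lag3 was 3.14, 2.73 and 2.72 (-0.17, SE 0.18). Il2ra was 4.16, 3.23 and 2.02 RPKM in STZ and 1.49, 2.47 and 2.28 in Con (+0.41, SE 0.24), and Tnfrsf4 (+0.31, SE 0.23) and Ctla4 (+0.31, SE 0.27) were also higher in STZ. Foxp3 was 4.13, 2.97 and 2.68 RPKM in STZ (+0.13, SE 0.21). The STZ and Con libraries overlapped for all 10 members, 0 passed the adjusted threshold of limma (adjusted p from 0.590 to 0.932, against 0.163% of all genes called) and 0 reached an unadjusted p under 0.05 (4.63% of all genes did so in the higher direction and 6.44% in the lower). In the same comparison 9 of 10 hepatocyte genes (median -2.51) and all 4 germ cell genes tested (median -2.73) were lower and 5 of 12 exocrine pancreas genes (median +3.12) higher at an unadjusted p under 0.05. Of these the germ cell gene Tnp1 passed the adjusted threshold (-2.90, SE 0.53, adjusted p = 0.0449). The part of these genes in the members' values was not tested.

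With AOS given to STZ animals, the same 4 receptors had the largest differences. Icos was 8.39, 6.54 and 7.07 RPKM in STZ-A10 (+0.40 against STZ, SE 0.17), Pdcd1 was 2.72, 2.28 and 2.17 (+0.40, SE 0.16) and Lag3 was 4.47, 3.66 and 4.37 (+0.42, SE 0.18), each with all STZ-A10 libraries above all STZ libraries. Tigit was 4.56, 4.16 and 3.21 RPKM in STZ-A10 and 2.54, 3.26 and 2.48 in STZ (+0.40, SE 0.20), with a slight overlap. The 5 genes Foxp3, Il2ra, Ctla4, Tnfrsf4 and Tnfrsf18 differed by +0.09 to +0.24 and Havcr2 by +0.01, which became -0.02 after median centring and -0.04 after quantile normalization. Of the 10 members, 0 passed the adjusted threshold (0.00775% of all genes), 3 were higher at an unadjusted p under 0.05 (1.28%) and 3 had libraries apart and higher (3.29%). Of the 3, 0 remained at that p without the third STZ library (median of the members +0.06) or without the first STZ-A10 library (median +0.12). Cd3e differed by +0.24 (SE 0.40), and the median of the members was +0.22 against +0.03 over all genes.

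Averaged over animals with and without STZ, the difference with AOS was +0.70 for Tigit (SE 0.14, adjusted p = 0.192), +0.69 for Lag3 (SE 0.13, adjusted p = 0.106), +0.52 for Pdcd1 (SE 0.11, adjusted p = 0.212) and +0.47 for Icos (SE 0.12, adjusted p = 0.405). None of the 10 members passed the adjusted threshold (0.00775% of all genes), and 6 were higher at an unadjusted p under 0.05 (3.61%). The median of the members was +0.39, and Cd3e differed by about as much, +0.40 (SE 0.28). All 20 T lineage genes were higher (median +0.26, 1 at that p), where 62.1% of all genes were. Relative to Cd3e 5 members were higher and 5 lower (median -0.01), where 2.46% of all genes were higher. In this ratio 0 members passed the adjusted threshold (0.0155% of all genes). Whether AOS differed in its effect between the 2 backgrounds was tested as an interaction. All 10 interaction terms were negative (Foxp3 and Tnfrsf18 turned to +0.01 and +0.21 with array weights, and Tnfrsf18 to between +0.09 and +0.10 without the first Con, the first STZ or the third STZ-A10 library), from -0.60 for Tigit (SE 0.28) and -0.54 for Lag3 (SE 0.25) to -0.09 for Tnfrsf18 (SE 0.42), with adjusted p = 1.00 for each. Of the members 0 passed the adjusted threshold, as did 0% of all genes, and 1, Lag3, had an unadjusted p under 0.05 (1.65% of all genes in that direction). That count ran from 0 to 2 when single libraries were left out, and the shares of all genes in those fits are not reported here. The interaction term of Cd3e was -0.31 (SE 0.56), near the median of the members, -0.33.

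Averaged over animals with and without AOS, the members furthest below the animals without STZ were Lag3, Pdcd1 and Icos. The difference was -0.44 for Lag3 (SE 0.13, adjusted p = 0.0663), -0.36 for Pdcd1 (SE 0.11, adjusted p = 0.0839) and -0.30 for Icos (SE 0.12, adjusted p = 0.205), and the other 7 members lay between -0.18 and +0.21. In animals without AOS alone, STZ against Con, these differences were smaller and the libraries overlapped. They were -0.17 for Lag3 (SE 0.18), -0.25 for Pdcd1 (SE 0.16) and -0.22 for Icos (SE 0.17). None passed the adjusted threshold, where 3.30% of all genes did, and these 3 had an unadjusted p under 0.05 (11.2% of all genes in that direction). Lag3 passed after quantile normalization, median centring or rescaling without globin genes, and Pdcd1 after the first of these. Genes of NK cells were lower as well: 6 of 10 fell past the adjusted threshold with STZ, among them Gzma (-1.17, SE 0.25, adjusted p = 0.0238) and Nkg7 (-0.86, SE 0.17, adjusted p = 0.0182), both products of cytotoxic granules, and Klre1 (-0.99, SE 0.19, adjusted p = 0.0127) and Klra8 (-0.85, SE 0.17, adjusted p = 0.0189), both NK receptors. The summed RPKM of the 10 NK genes was 119.6 to 171.5 in the Con and A10 libraries and 50.0 to 99.4 in the STZ and STZ-A10 libraries. Also lower past the adjusted threshold were 6 of 10 hepatocyte genes, led by Alb (-3.68), Apoa2 (-3.25), Apoa1 (-2.64) and Ahsg (-2.065). So were the dendritic cell gene Siglech (-1.03), the thymocyte gene Dntt (-0.79) and the germ cell gene Tnp1 (-1.45). Of 12 exocrine pancreas genes 3 were higher past it, Try5 (+5.795), Ctrb1 (+4.89) and Try4 (+4.67). Cd3e lay further below than any member, at -0.49 (SE 0.28, adjusted p = 0.388). Of 20 T lineage genes 19 were lower (median -0.45, 5 at an unadjusted p under 0.05), where 44.8% of all genes were higher. The part of NK cells, T cell RNA or other tissues in the differences of Lag3, Pdcd1 and Icos was not tested beyond the ratio to Cd3e given below.

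The transplant groups were compared with STZ, which both comparisons share. In Con-FMT animals Icos was 7.69, 8.20 and 7.69 RPKM (+0.49 against STZ, SE 0.17), Pdcd1 was 2.81, 2.94 and 2.45 (+0.54, SE 0.16) and Lag3 was 4.36, 3.80 and 4.02 (+0.39, SE 0.18), with every Con-FMT library above every STZ library. Tigit was 3.46, 3.32 and 3.25 RPKM (+0.21, SE 0.20), just overlapping STZ. Foxp3 was 3.50, 4.26 and 3.68 RPKM (+0.19, SE 0.21), and Il2ra (-0.14, SE 0.24) and Tnfrsf4 (-0.02, SE 0.23) lay slightly below STZ. Of the members, 0 passed the adjusted threshold (0.00775% of all genes), 3 were higher at an unadjusted p under 0.05 (2.66%) and 3 had libraries apart and higher (6.94%). Without the second STZ library 1 was higher at that p, and the share of all genes in that fit is not reported here. Cd3e differed by +0.50 (SE 0.40), with its Con-FMT libraries also above the STZ libraries.

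In A10-FMT animals all 10 members were lower than in STZ, by 0.10 to 0.75 on the log2 scale, although Pdcd1 and Lag3 turned to +0.06 and +0.07 with each library centred on its median and to +0.04 and +0.11 after quantile normalization, where Icos was at +0.00024. Il2ra was 1.5, 2.11 and 0.79 RPKM (-0.75, SE 0.24, adjusted p = 0.227), Tnfrsf4 was 4.25, 7.51 and 2.97 (-0.71, SE 0.23, adjusted p = 0.230) and Foxp3 was 2.06, 2.87 and 1.21 (-0.51, SE 0.21, adjusted p = 0.269). Median centring moved the median of all genes in this comparison from -0.15 to +0.02 and that of the members from -0.39 to -0.22, with 2 members lower at an unadjusted p under 0.05 where 5.56% of all genes were lower and 7.25% higher. Of the 10, 0 passed the adjusted threshold (0.00775% of all genes), 4 were lower at an unadjusted p under 0.05 (15.2%) and 2, Tigit and Havcr2, had libraries apart and lower (12.1%). Other lists differed in the same comparison: 9 of 10 hepatocyte genes were higher (median +3.08) and 8 of 11 macrophage genes lower (median -0.49) at an unadjusted p under 0.05, 1 of 6 globin genes was higher (median +1.03) and 2 of 20 T lineage genes were lower (median -0.42). The summed RPKM of the hepatocyte genes was 98.0 to 370.6 in A10-FMT and 5.43 to 7.01 in STZ. Their part in the members' difference was not tested. The count of members rested on single A10-FMT libraries, with 7 lower without the second. The share of all genes lower without the second or without the third library is not reported here, so these counts cannot be set against it. Without the third 1 member, Il2ra, remained lower at an unadjusted p under 0.05 (-0.53, SE 0.24), Foxp3 was at -0.29 (SE 0.21), Ctla4 was at -0.0021 (SE 0.23), Icos was at +0.02 (SE 0.14) and Cd3e was at -0.04 (SE 0.29).

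The direct comparison of the transplants, A10-FMT against Con-FMT, had the most members at an unadjusted p under 0.05. Tnfrsf18 was 12.94, 17.49 and 5.38 RPKM in A10-FMT and 21.00, 20.36 and 20.11 in Con-FMT (-0.86, SE 0.29). Icos was 4.47, 6.41 and 2.89 RPKM against 7.69, 8.20 and 7.69 (-0.71, SE 0.17), Foxp3 was 2.06, 2.87 and 1.21 against 3.50, 4.26 and 3.68 (-0.69, SE 0.21) and Pdcd1 was 1.06, 2.03 and 1.13 against 2.81, 2.94 and 2.45 (-0.65, SE 0.16). Tigit was 1.69, 2.44 and 2.17 RPKM against 3.46, 3.32 and 3.25 (-0.49, SE 0.20). The groups were apart for 8 of the 10 members, all but Ctla4 and Tnfrsf4, where 23.9% of all genes were apart and lower.

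After adjustment none of the 10 passed (adjusted p from 0.204 to 0.213), nor did any gene (0% of all genes called), although 9 members were lower at an unadjusted p under 0.05, as were 20.1% of all genes. The median of the members was -0.63 against -0.17 over all genes, and after median centring it was -0.46 against +0.01, with 7 members lower at an unadjusted p under 0.05 where 8.32% of all genes were lower and 10.5% higher. Cd3e was -1.13 (SE 0.40, adjusted p = 0.204) and all 20 T lineage genes were lower at an unadjusted p under 0.05, with a median of -0.96, and globins took 28.3% to 42.7% of the summed RPKM in the A10-FMT libraries, compared with 21.8% to 32.0% after the control transplant. Markers of other cells differed as well, with 3 of 10 B cell genes (median -0.76), 7 of 10 NK cell genes (median -0.60) and 4 of 10 dendritic cell genes (median -0.48) lower and 9 of 10 hepatocyte genes higher (median +2.27) at an unadjusted p under 0.05. The share of these in the members' difference was not tested beyond the ratio to Cd3e. Without the third A10-FMT library, 5 of the members remained lower at an unadjusted p under 0.05, all with adjusted p = 0.865. They were Pdcd1 (-0.58, SE 0.17), Tigit (-0.51, SE 0.23), Foxp3 (-0.48, SE 0.21), Icos (-0.48, SE 0.14) and Havcr2 (-0.34, SE 0.14). The share of all genes lower at that p in this fit is not reported here. Without the second A10-FMT library, which had the highest values of that group, 9 of the 10 passed the adjusted threshold. How many of all genes passed in that fit is not reported here, so this count cannot be set against them.

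**Figure D3:**
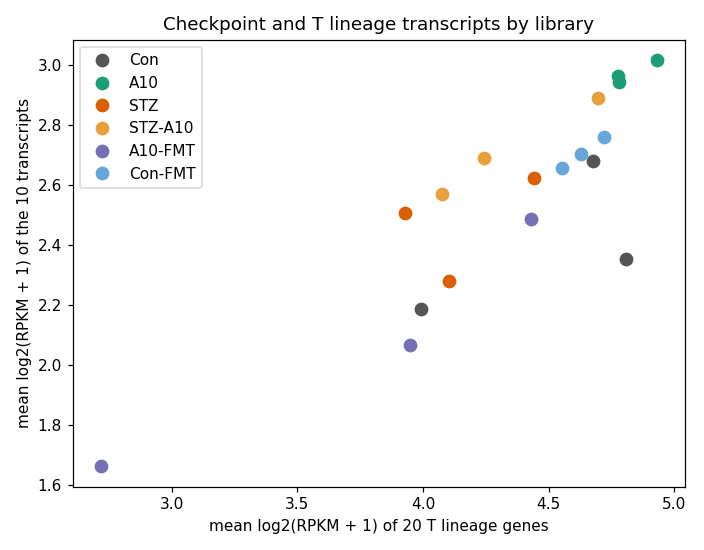
Mean log2(RPKM + 1) of the 10 transcripts (vertical axis) against the same mean for 20 T lineage genes (horizontal axis), 1 point a library, coloured by group. The A10 libraries are at the upper right (2.94 to 3.02 on the vertical axis, 4.78 to 4.93 on the horizontal axis), and the third A10-FMT library is at the lower left (1.66 and 2.72).

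The members followed T lineage RNA across libraries to different degrees. Over the 18 libraries, which share groups and differ in composition, Pearson's r with Cd3e on the log2 scale was highest for Tnfrsf18 (0.95) and Icos (0.91) and lowest for Tigit (0.51). The third Con library had the highest Con level of Cd3e, 34.04 RPKM, and yet low Tigit (1.32 RPKM), Pdcd1 (1.72) and Ctla4 (3.20).

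Set against Cd3e, the A10 and Con levels of several members were close. Per 100 RPKM of Cd3e, Foxp3 was 11.1 ± 2.75 in Con and 11.6 ± 0.35 in A10 (SD, n = 3), Icos was 25.3 ± 7.37 and 25.4 ± 1.38, and Pdcd1 was 8.22 ± 2.81 and 9.64 ± 0.41. Lag3 was 14.3, 15.7 and 9.58 per 100 in Con and 16.5, 16.3 and 26.99 in A10, still apart (+0.40 on the log2 scale, SE 0.39), and Tigit was 14.3, 13.0 and 3.88 against 15.1, 13.4 and 16.7 (+0.44). Single libraries carried much of both: Lag3 was at +0.19 without the third A10 library and Tigit at -0.02 without the third Con library. Tnfrsf18 was lower per Cd3e in A10, 53.8 ± 2.41 against 68.8 ± 10.5 per 100, with the libraries apart, as they were for Havcr2. In this ratio 0 of the 10 members passed the adjusted threshold of limma (0.0232% of all genes), 0 had an unadjusted p under 0.05 (0.0852% of all genes higher and 3.56% lower), 1 was apart and higher (0.194% of all genes) and 2 were apart and lower (48.1%). Cd3e was among the genes that differed most, and 2.07% of all genes had a higher ratio to it in A10, against 4 of the 10 members. The differences in ratio of Foxp3 (-0.05) and Icos (-0.01) turned to +0.17 and +0.21 with the mean of the T lineage genes as denominator, and to +0.08 and +0.04 with a pseudocount of 0.1.

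**Figure D4:**
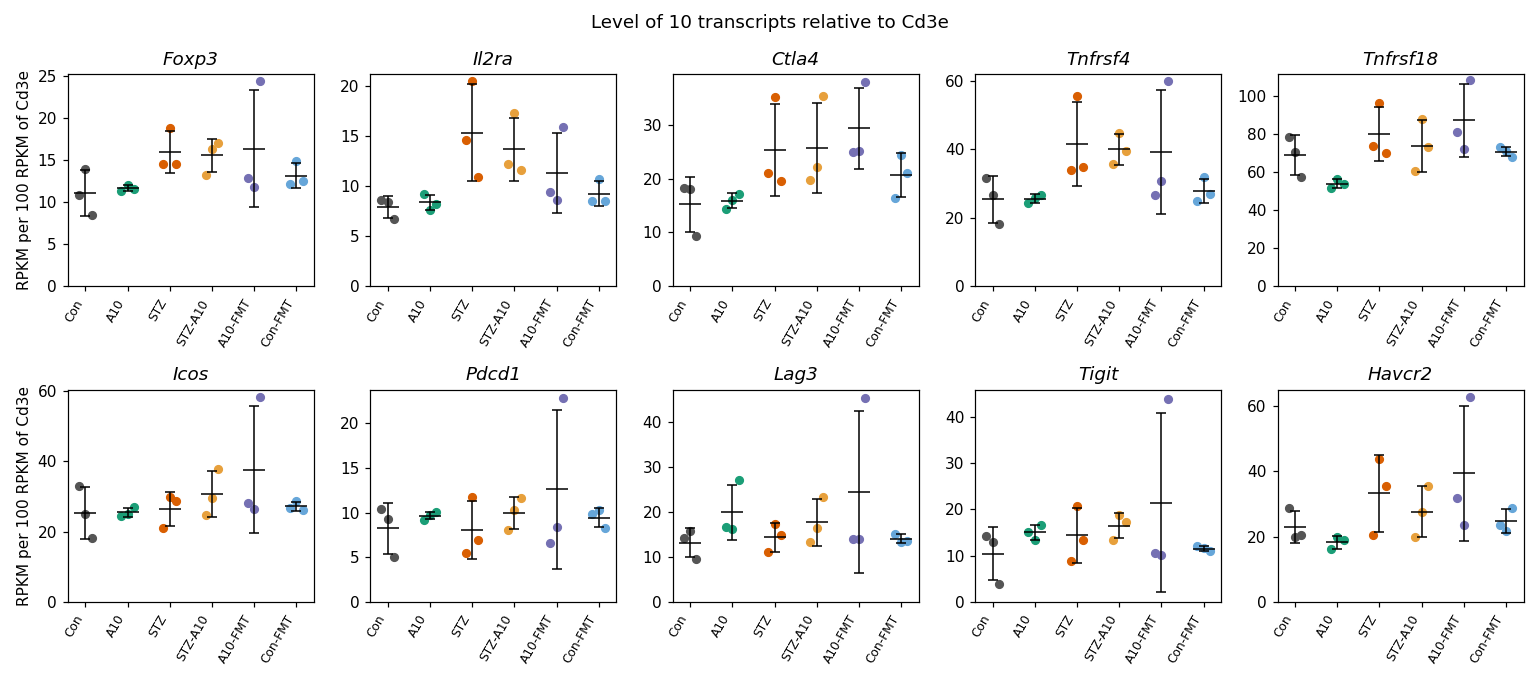
RPKM of the 10 transcripts per 100 RPKM of Cd3e in each library, by group (points; bar and whiskers, mean and SD of 3 libraries). The A10 and Con means are close for Foxp3, Il2ra, Ctla4, Icos and Tnfrsf4, the STZ libraries lie above the Con libraries for Foxp3, Il2ra, Ctla4 and Tnfrsf4, and the high point in A10-FMT is the third library, where Cd3e was 4.96 RPKM.

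Relative to Cd3e, Il2ra, Foxp3, Ctla4 and Tnfrsf4 had all STZ libraries above all Con libraries. Il2ra was 14.6, 20.5 and 10.98 per 100 RPKM of Cd3e in STZ and 8.60, 8.47 and 6.70 in Con, a difference of +0.74 on the log2 scale (SE 0.34, adjusted p = 0.781). Foxp3 was 14.5, 18.9 and 14.6 against 10.9, 13.96 and 8.46 (+0.47, SE 0.33), Ctla4 was 21.1, 35.0 and 19.5 against 18.2, 18.1 and 9.40 (+0.65, SE 0.34) and Tnfrsf4 was 34.1, 55.7 and 34.7 against 31.8, 26.6 and 18.2 (+0.65, SE 0.33). These were 4 of the 10 members, where 5.69% of all genes had STZ apart and higher. Tigit (+0.48), Havcr2 (+0.45) and Tnfrsf18 (+0.21) overlapped. Without the third Con library Foxp3 was at +0.29, Ctla4 at +0.36 and Tigit at +0.02. None passed the adjusted threshold (0.031% of all genes) and 1, Il2ra, had an unadjusted p under 0.05 (1.94% in that direction). Cd3e itself was lower in STZ, by 0.34 on the log2 scale (SE 0.40), and 90.6% of all genes had a higher ratio, with a median of +0.33 against +0.46 for the members.

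Averaged over animals with and without AOS, the ratio to Cd3e was higher with STZ for Il2ra (+0.71, SE 0.24, adjusted p = 0.172), Ctla4 (+0.64, SE 0.24, adjusted p = 0.199) and Tnfrsf4 (+0.63, SE 0.23, adjusted p = 0.195), and differed little for Lag3 (+0.05, SE 0.27) and Pdcd1 (+0.13, SE 0.28). None passed the adjusted threshold (1.04% of all genes), these 3 had an unadjusted p under 0.05 (22.8% of all genes), and the median of the members, +0.40, lay below that of all genes, +0.47. Without the third A10-FMT library, which enters the estimate of the spread, 5 members passed, Foxp3, Il2ra, Ctla4, Havcr2 and Tnfrsf4. What share of all genes passed in that fit is not reported here.

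Between the transplant groups the ratio to Cd3e was higher in A10-FMT for all 10 members, by 0.27 to 0.64 (with array weights Pdcd1 turned to -0.07 and Tnfrsf4 to -0.00031, and without the third A10-FMT library Pdcd1 was at -0.04), with a median of +0.50 that lay below the +0.97 of all genes. None of the 10 passed the adjusted threshold, where 57.2% of all genes did, and 1, Ctla4, had its libraries apart and higher (69.4%). Against STZ, Il2ra (-0.63, SE 0.34) and Tnfrsf4 (-0.51, SE 0.33) were lower per Cd3e in Con-FMT with the libraries apart, 2 of the 10 where 49% of all genes were. No member passed the F test over the 6 groups relative to Cd3e (0.473% of all genes), the lowest adjusted p being 0.109 for Ctla4.

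The inhibitory receptors were also set against Foxp3 in the same library. The ratio of Pdcd1 to Foxp3 was 0.81, 0.81 and 0.86 in A10 and 0.38, 0.62 and 0.48 in STZ, with 0.95, 0.66 and 0.60 in Con. The ratio of Lag3 to Foxp3 was 1.46, 1.36 and 2.32 in A10, 1.31, 1.12 and 1.13 in Con and 0.76, 0.92 and 1.01 in STZ, so that these 3 groups did not overlap. The other groups lay across them, with 1.00, 1.01 and 1.37 in STZ-A10, 1.09, 1.19 and 1.85 in A10-FMT and 1.25, 0.89 and 1.09 in Con-FMT. The ratio of Tigit to Foxp3 was 1.33, 1.12 and 1.43 in A10, 0.615, 1.10 and 0.93 in STZ and 1.31, 0.93 and 0.46 in Con, which overlapped both. That of Il2ra had its highest mean in STZ (1.01, 1.09 and 0.75). It was 0.82, 0.64 and 0.71 in A10, 0.79, 0.61 and 0.79 in Con and 0.92, 1.06 and 0.68 in STZ-A10, all overlapping STZ. A10-FMT (0.728, 0.735 and 0.653) and Con-FMT (0.700, 0.723 and 0.688) lay below STZ. That of Tnfrsf4 was 2.35, 2.95 and 2.38 in STZ and 2.15, 2.16 and 2.30 in A10. Con (2.91, 1.90 and 2.15) and STZ-A10 (2.70, 2.74 and 2.33) overlapped STZ. These ratios are descriptions, were not tested and have no share of all genes beside them. Groups not named for a ratio are not reported here.

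Pairs of members were compared across libraries. Over the 18 libraries the highest correlation between members on the log2(RPKM + 1) scale was that of Il2ra and Tnfrsf4 (Pearson's r = 0.95), followed by Foxp3 and Tnfrsf4 (0.93), Icos and Pdcd1 (0.92) and Pdcd1 and Lag3 (0.90). The lowest were Tigit with Havcr2 (0.41) and Tigit with Tnfrsf18 (0.46). These values are a description, since the libraries share groups and the third A10-FMT library was low for nearly all of them.

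Among all genes tested, those with the pattern most like Foxp3 over the 18 libraries were Gm42372, Gbp8 and Plxnb2 (r = 0.94 each). The single most similar gene was Izumo1r for Ctla4 (r = 0.91), which encodes a surface protein found on regulatory T cells, and Tox for Pdcd1 (r = 0.92), a transcription factor of chronically stimulated T cells. It was Psmb9, a subunit of the immunoproteasome, for Icos (r = 0.95), Creld2 for Lag3 (r = 0.94), Eaf2 for Tigit (r = 0.87) and Dnase1l3, a secreted nuclease of dendritic cells and macrophages, for Havcr2 (r = 0.93). It was Pip5k1c for Il2ra (r = 0.95) and Lpar1 for Tnfrsf4 (r = 0.95).

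The ligands of these receptors were listed as well. Of 16 ligand genes listed, 13 could be tested, and 0 passed the adjusted threshold in any of the 6 group pairs. In A10 against Con their median difference was +0.08, against +0.55 for the receptors, and 1 was higher at an unadjusted p under 0.05. In A10-FMT against Con-FMT 5 were lower and 1 higher at an unadjusted p under 0.05, with a median of -0.40. Il2, which encodes the ligand of CD25, and Tnfsf4 and Tnfsf18, which encode the ligands of OX40 and GITR, did not reach the filter, with group means of at most 0.17, 0.36 and 0.39 RPKM.

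Other genes of regulatory T cells, such as transcription factors, cytokines and interleukin-2 signalling components, were tested for 18 of 20 listed. None passed the adjusted threshold in any group pair. In A10 against Con 14 of the 18 were higher, 4 of them at an unadjusted p under 0.05, with a median of +0.15, where 62.5% of all genes were higher. In A10-FMT against Con-FMT 16 were lower, 9 of them at an unadjusted p under 0.05, with a median of -0.40, where only 29% of all genes were higher. In STZ against Con 9 were higher, 0 of them at an unadjusted p under 0.05, and 9 lower, 2 of them at that p, with a median of +0.00.

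A further 19 checkpoint and costimulatory receptors and associated factors, 18 of them tested, were compared in the same way. In all, 12 were higher in A10 than in Con (median +0.14, with 2 higher and 1 lower at an unadjusted p under 0.05), where 62.5% of all genes were higher. In STZ against Con 14 were lower (median -0.27, 3 at an unadjusted p under 0.05), where 47.6% of all genes were higher. In A10-FMT against Con-FMT 16 were lower (median -0.45, 8 at an unadjusted p under 0.05), where only 29% of all genes were higher. For follicular helper T cell genes, 6 of 8 tested, all 6 were higher in A10 than in Con (median +0.34) and in STZ-A10 than in STZ (median +0.37), with 1 at an unadjusted p under 0.05 in each comparison. Of all genes, 62.5% were higher in A10 than in Con and 58.7% in STZ-A10 than in STZ. No gene of either list passed the adjusted threshold in a group pair.

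Havcr2 and Lag3 are also transcribed outside T cells. In A10 against Con, 3 of 11 macrophage genes were higher at an unadjusted p under 0.05 (median +0.21), as were 0 of 10 dendritic cell genes (median +0.21) and 0 of 10 NK cell genes (median +0.10). In STZ against Con, 8 of 11 macrophage genes were higher (median +0.41) and 6 of 10 NK cell genes lower (median -0.70) at an unadjusted p under 0.05. With STZ averaged over AOS, Cd163, a scavenger receptor of red pulp macrophages, rose past the adjusted threshold (+0.83, SE 0.16, adjusted p = 0.0133), as did Vcam1 and Mertk, while Havcr2 was at +0.01 (SE 0.12).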

How the data were processed

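Poly(A) RNA of mouse spleen was sequenced by Illumina HiSeq. The authors mapped reads to reference genes with SOAPaligner and deposited RPKM values; the submitters' processing notes also name Bowtie 0.12.2 and mm10, without a role. The annotation version and the use of strand are not given in the sources used here. Read counts were not used here, so depth is known only from the estimate in the report and no counting interval was computed.

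Of 19326 lines, 6 with repeated names were left out. The 12905 genes with an RPKM of at least 1 in at least 3 libraries entered limma-trend (limma 3.58.1, R 4.3.3) as log2(RPKM + 1), with all 18 libraries in a single model, a coefficient per group and no covariate. Log2 differences on this scale understate the change of low genes. P-values are two-sided, from 6 group pairs, the 2 averaged effects of STZ and AOS, their interaction and an F test over groups, each adjusted by the Benjamini-Hochberg method over all genes (threshold 0.05). The same contrasts were fitted to log2 ratios to Cd3e (12904 genes). Libraries were called apart where the groups' ranges did not overlap. Tested on simulated data for A10 against Con, the model recovered 74 of 100 genes changed by 1 on the log2 scale and 97 of 100 changed by 2, with 16 of 12705 unchanged genes called. The F test over groups recovered 69 and 95 of 100 in the same data, with 17 of 12705 unchanged genes called. Whether these counts carry over to the spleen libraries, which differed in composition, was not tested.

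The members and gene lists were chosen with earlier results of these data known. List genes are named where they passed the adjusted threshold in a group pair or an averaged effect, at most 4 per list and comparison. In the F test over groups, 1 hepatocyte gene (Alb) and 3 germ cell genes (Prm1, Prm2 and Tnp1) passed. Il2, Tnfsf4 and Tnfsf18 were named after their values were seen, and the counts against all other libraries and the ratios to Foxp3 were added then. The gene of most similar pattern is not reported here for Tnfrsf18. Positions and overlaps come from GENCODE M21 (GRCm38). Alternatives were other normalizations, filters, a pseudocount of 0.1, no trend, array weights, fits of the compared groups alone, a replicate block, the T lineage mean as denominator, the study's threshold and leaving out each library.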

Additional observations from a re-analysis of the deposited data

How the results depend on the processing

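On the level scale, A10 against Con and A10-FMT against Con-FMT kept their sign for all 10 members under every setting run. Differences in other comparisons and in ratios to Cd3e did not all do so, among them Foxp3 in STZ against Con (+0.13, and -0.27 with array weights) and Icos in A10-FMT against STZ (-0.22, and +0.02 without the third A10-FMT library). Array weights, which gave single libraries weights from 0.11 to 7.37, moved most. They gave 3 of the 10 members in STZ against Con, 4 in A10 against Con, 5 in A10-FMT against STZ, 2 in Con-FMT against STZ, 10 in A10-FMT against Con-FMT, 6 for STZ averaged over AOS, 4 for AOS averaged over STZ and 10 over the 6 groups, where they also called 9970 of all genes. Relative to Cd3e they gave 4, 1, 3 and 3 members in STZ against Con, A10 against Con, Con-FMT against STZ and A10-FMT against Con-FMT, and 8, 1 and 1 for STZ, AOS and their interaction. For STZ averaged over AOS, quantile normalization gave 2, and median centring and rescaling without globin genes 1 each. Over the 6 groups, rescaling without globin genes gave 4 (Icos, Pdcd1, Lag3 and Tigit), no filter 1 (Lag3) and the replicate block 1 (Pdcd1). The cause was not tested. Apart from the 9970 genes over the 6 groups, the number of all genes called under these settings is not reported here. These counts of members can therefore not be set against that of all genes.

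Leaving out each library gave 0 to 2 members in A10 against Con and for AOS averaged over STZ (2 without the second Con library), 0 to 9 in A10-FMT against Con-FMT (9 without the second A10-FMT library), 0 to 2 for STZ averaged over AOS and 0 to 5 over the 6 groups. Relative to Cd3e it gave 0 to 4 in A10-FMT against Con-FMT (4 without the second A10-FMT library) and 0 to 5 for STZ (5 without the third A10-FMT library). The other counts kept 0. How many of all genes were called in each of these fits is not reported here, so the counts have no share beside them.

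Whether replicate numbers pair the libraries was not settled. In their deviations from the group means, same-numbered libraries of 2 groups had r from -0.39 to 0.57 (median 0.04), over 0.1 in 14 of 45 pairs. Libraries of other numbers had r from -0.58 to 0.51 (median -0.01), over 0.1 in 23 of 90 pairs. Of the 18 libraries, 9 were closest to one of their own number. Of the counts past the adjusted threshold, the replicate block moved only the one above. At an unadjusted p under 0.05 it gave 8 members instead of 6 in A10 against Con, 2 instead of 3 in Con-FMT against STZ, 10 instead of 9 in A10-FMT against Con-FMT and 7 instead of 6 for AOS. The shares of all genes with the block are not reported here. Tigit rested on at most about 69 reads a library and Pdcd1 on 89, and the part of counting error in their spread was not tested.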
